A study of Homo sapiens with 6 samples.

Results

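The mRNA levels of 84 cell cycle genes in vehicle-treated HMC-1.2 cells were ranked against each other to find which cyclins, kinases, inhibitors, checkpoint and repair genes were abundant and which were scarce in these dividing cells without an inhibitor. HMC-1.2 is an established human neoplastic mast cell line with the KIT mutations D816V and V560G, which make this growth factor receptor active without its ligand. The cells had received 0.1% DMSO for 24 h, and the 2 samples, Vehicle 1 and Vehicle 2, are 2 of the 6 in the series. The other samples, 2 with SPHK1-I and 2 with SPHK2-I, inhibitors of the sphingosine kinases, enter no value here. The labels do not say whether the duplicates came from different cultures, and their spread may be technical.

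The array was a 96-well plate for quantitative PCR with SYBR dye, and it held the 84 genes, 5 housekeeping genes and 7 control wells. All 84 genes gave a signal in both samples. It carries no assay for a mast cell marker, so the labelled cell type could not be checked against its markers. The threshold cycle (Ct) is the PCR cycle at which a product becomes visible, and a later cycle means less mRNA, by 1 on the log2 scale per cycle where the product doubles each time. Levels are given as −ΔCt, a log2 scale in which the Ct of a gene is subtracted from the mean of 4 reference genes (RPLP0, B2M, HPRT1 and GAPDH), and also as a percentage of that reference level. Paired values are those of Vehicle 1 and then Vehicle 2.

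Cyclins are the regulatory subunits of cyclin-dependent kinases (CDKs), and their turnover drives the cell from G1 through DNA replication (S) and G2 into mitosis (M). D cyclins with CDK4 or CDK6 and cyclin E with CDK2 phosphorylate the RB proteins and so free E2F factors, whereas cyclin A with CDK2 acts in S phase and cyclins A and B with CDK1 take the cell through G2 and into mitosis. CDK inhibitors and the ATM and ATR checkpoint kinases hold this machinery back, and the anaphase-promoting complex (APC/C) and the SCF ligases destroy its parts. Mast cells depend on KIT signals for growth and survival.

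Genes that peak in G2 and mitosis often carry a cell cycle genes homology region (CHR) and CCAAT boxes close to their transcription start, and genes of the G1/S transition often carry E2F sites. The 250 bases before the start are shown for genes at both ends of the ranking, from RefSeq (GRCh38.p14). CKS2 was the most abundant gene, and CCNB2 is a mitotic cyclin among the 28 highest genes whose CHR lies, like that of CKS2, 29 bases before the start. CDK6 and CDK5R1 were among the 3 scarcest genes. The windows lie at chr9:89310945-89311194 on the plus strand for CKS2, chr15:59104896-59105145 on the plus strand for CCNB2, chr7:92836574-92836823 on the minus strand for CDK6 and chr17:32486743-32486992 on the plus strand for CDK5R1. Capitals mark matches to TTTGAA (CHR) and CCAAT on either strand, so that ATTGG and TTCAAA are matches on the other strand.
CKS2: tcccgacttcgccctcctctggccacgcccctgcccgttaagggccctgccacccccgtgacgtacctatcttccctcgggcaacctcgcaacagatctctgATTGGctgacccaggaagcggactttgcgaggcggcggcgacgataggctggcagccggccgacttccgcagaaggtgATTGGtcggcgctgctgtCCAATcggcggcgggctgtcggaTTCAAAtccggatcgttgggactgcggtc
CCNB2: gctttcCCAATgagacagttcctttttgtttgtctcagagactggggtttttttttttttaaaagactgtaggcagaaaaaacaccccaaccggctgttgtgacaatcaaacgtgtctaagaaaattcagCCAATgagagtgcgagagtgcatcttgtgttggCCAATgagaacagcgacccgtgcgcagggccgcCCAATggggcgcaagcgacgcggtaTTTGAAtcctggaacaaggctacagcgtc
CDK6: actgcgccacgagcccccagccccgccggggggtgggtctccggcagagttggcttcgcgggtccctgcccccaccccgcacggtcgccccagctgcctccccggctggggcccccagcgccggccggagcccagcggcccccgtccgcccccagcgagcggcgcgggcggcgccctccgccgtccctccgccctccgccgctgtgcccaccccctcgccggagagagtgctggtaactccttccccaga
CDK5R1: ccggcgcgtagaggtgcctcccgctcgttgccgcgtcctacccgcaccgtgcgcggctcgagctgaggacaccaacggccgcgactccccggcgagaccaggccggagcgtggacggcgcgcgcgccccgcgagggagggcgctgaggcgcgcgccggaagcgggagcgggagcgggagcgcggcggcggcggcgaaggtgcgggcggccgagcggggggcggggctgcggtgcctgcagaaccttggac

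CKS2 carried 3 CCAAT boxes, at 148, 70 and 52 bases before the start, and CCNB2 carried 4, at 244, 120, 87 and 54 bases. Neither motif was found in the windows of CDK6 and CDK5R1, which held 3 and 2 GC boxes (GGGCGG), and the window of CCNB2 also held a GC box. Of the 84 genes, 68 had an entry in the promoter table, 24 of them with several starts, and a gene was counted where any start carried the motif. The CHR was present in 8 of 23 with an entry among the 28 highest genes (34.8%), 4 of 24 among the 28 in the middle (16.7%) and 3 of 21 among the 28 lowest (14.3%), beside 16.1% of all 27305 genes of the table. CCAAT boxes were found in 73.9%, 58.3% and 47.6% of the high, middle and low genes and in 37% of all genes. E2F sites (TTTCCCGC, TTTCGCGC, TTTGCCGC or TTTGGCGC) were found in 21.7%, 8.33% and 9.52% and in 3.4% of all genes, and GC boxes in 73.9%, 79.2% and 81% and in 46.2%. A TATA box (TATAAA) was present in 3 of the 68 genes, none of them among the 28 highest, and in 13% of all genes. The high genes with a CHR were CKS2, CKS1B, KPNA2, CDK1, MKI67, CDC20, CCNB2 and CDKN3, and the low ones were RAD17, ATM and CDC25C. The 4 windows shown contrast more sharply than the ranking does. CCND3, which ranked 3, had no CHR, and CDC25C, which ranked 80, had both a CHR and a CCAAT box. The motifs can overlap, were chosen with the levels known and are given without a test.

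The median level of the 84 genes was −4.95 in Vehicle 1 and −4.93 in Vehicle 2, and its mean of −4.94 corresponds to 3.26% of the reference level. No gene reached the mean of the 4 reference genes. The levels spanned 10.03 on the log2 scale, or 1042-fold, between CKS2 and CDK5R1, and the middle range from the lower to the upper quartile was −6.04 to −3.75. There were 14 genes above 10% of the reference, 53 between 1% and 10%, and 17 below 1%, of which 3 were below 0.1%.

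**Figure D1:**
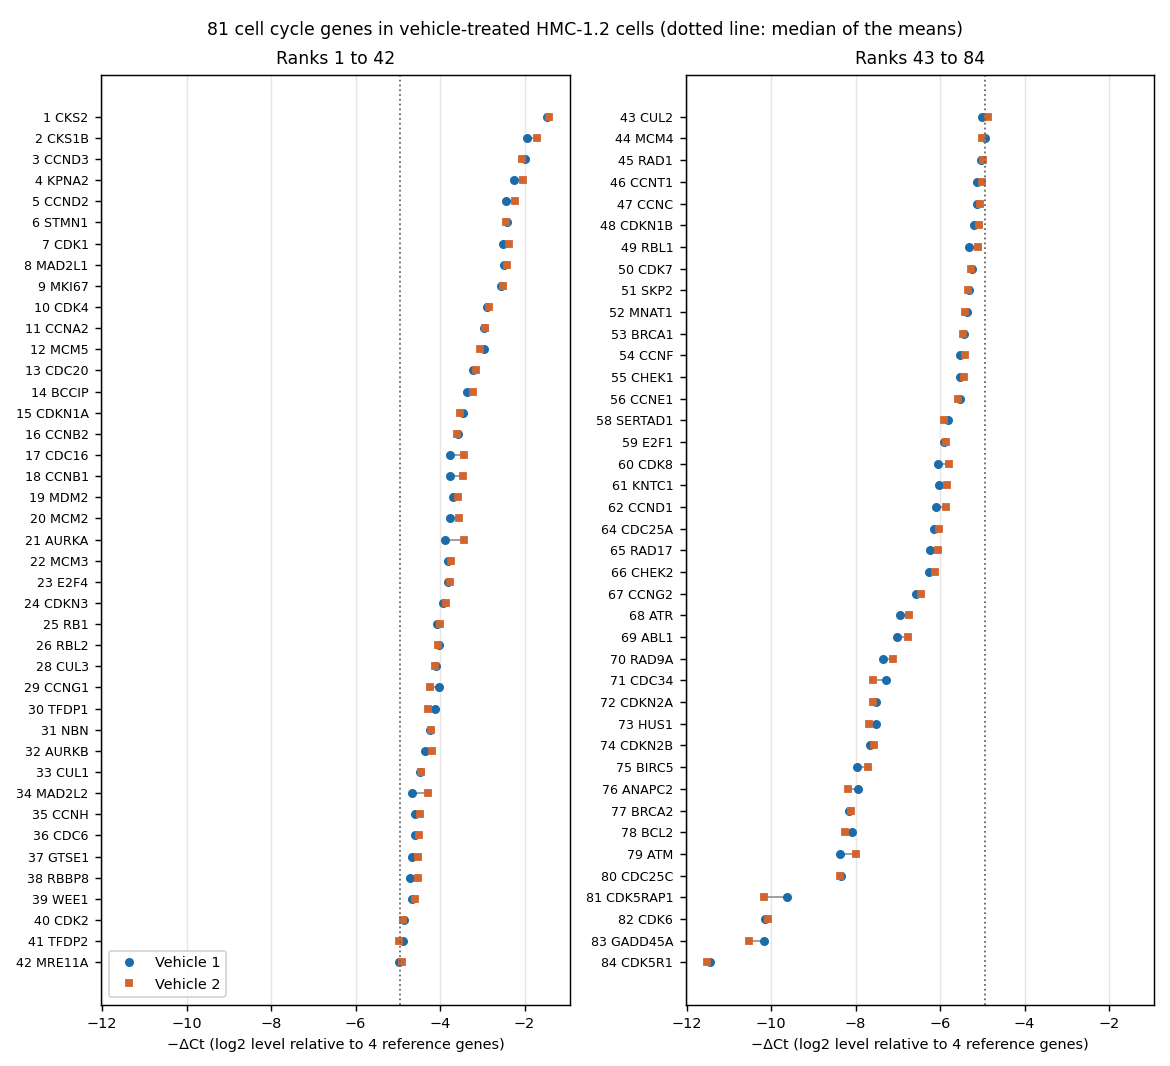
Level of 81 of the 84 genes in Vehicle 1 (circles) and Vehicle 2 (squares), ranked by their mean. The horizontal axes show −ΔCt (log2 level relative to the 4 reference genes) and the dotted line is the median of −4.94. The duplicates lie close together along the whole order, and 4 genes (CDK5RAP1, CDK6, GADD45A and CDK5R1) stand below the rest.

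A small number of genes made up most of the summed relative level. The 5 most abundant genes held 26.6% and 27.1% of it, the 10 most abundant 44.3% and 44.5%, and the 15 most abundant 55.9% and 55.6%. The 42 genes below the median held 12.6% and 12.5%. In order, the 15 most abundant were CKS2, CKS1B, CCND3, KPNA2, CCND2, STMN1, CDK1, MAD2L1, MKI67, CDK4, CCNA2, MCM5, CDC20, BCCIP and CDKN1A. The 15 scarcest, down to the lowest, were RAD9A, CDC34, CDKN2A, HUS1, CDKN2B, BIRC5, ANAPC2, BRCA2, BCL2, ATM, CDC25C, CDK5RAP1, CDK6, GADD45A and CDK5R1.

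Because only 2 samples were available, no p-values were computed. The spread between duplicates was taken from all 84 genes together (residual SD of 0.117, 83 degrees of freedom). It gives the difference between the means of any 2 genes a 95% interval of ± 0.23 on the log2 scale, or 1.18-fold. Of the 3486 possible pairs of genes, 3255 (93.4%) differed by more than this, without adjustment for the number of pairs. Of the 83 steps between neighbours in the ranking, 10 did, and the median number of other genes within the interval was 6. Even by the spread between duplicates alone, a gene's rank is thus known only to within a few places. The interval covers the spread between duplicates only. Comparing genes also assumes that all primers amplify alike, which was not tested. A gene amplified 1.9-fold per cycle in place of 2-fold would read 2.01 lower on the log2 scale at the median Ct. Each assay reads 1 product per transcript, and effects of product length or of reverse transcription on the comparison were not tested.

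The D cyclins, which link growth factor signals to CDK4 and CDK6, were dominated by CCND3 and CCND2. CCND3, which ranked 3, had levels of −1.98 and −2.07 (24.5 ± 1.06% of the reference, SD, n = 2). CCND2 had −2.44 and −2.23 (19.9 ± 1.98%), and CCND1 had −6.10 and −5.87 (1.59 ± 0.181%). CCND1 was thus far below the other two in both samples. CCND3 exceeded CCND1 by 3.95 (95% interval 3.72 to 4.19), a 15.5-fold difference, and CCND2 exceeded it by 3.65 (3.41 to 3.88). Between CCND3 and CCND2 the difference was 0.31 (0.07 to 0.54), with 0.45 in Vehicle 1 and 0.16 in Vehicle 2. As shares of the 3 D cyclins, CCND3 made up 55.9% and 50.9%, CCND2 40.8% and 45.5%, and CCND1 3.23% and 3.67%.

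Cyclin E1 (CCNE1), the CDK2 partner of late G1, was below the median of the array with −5.54 and −5.58 (2.12 ± 0.0418%). Cyclin A2 (CCNA2), which acts with CDK2 in S phase and with CDK1 in G2, was the most abundant of the later cyclins with −2.96 and −2.94 (12.96 ± 0.153%). The mitotic cyclins were less abundant and close together. CCNB2 had −3.57 and −3.60 and CCNB1 had −3.77 and −3.45, and their difference of −0.02 for CCNB1 minus CCNB2 (−0.26 to 0.21) changed sign between the samples. CCNF, an F-box protein and no CDK activator, had −5.53 and −5.40. The median of these 4 S and G2/M cyclins, −3.60, was the highest of the 16 lists by mean level and lay 1.34 above the median of the array. In the 2 samples it was −3.67 and −3.53. The mitosis and proliferation list, at −3.88 and −3.44, stood higher in Vehicle 2, so the first place is not settled. Without the 9 genes of mean Ct above 30 the S and G2/M list lay 1.02 above, level with the APC/C and spindle checkpoint list at 1.02. The cell cycle kinases at 1.75 and the list of phosphatases, WEE1 and CKS subunits at 1.39 then stood higher, having each lost their lowest member.

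The 5 remaining cyclins lay around the median of the array. CCNG1 was the most abundant of them with −4.04 and −4.25, and it exceeded its relative CCNG2, with −6.58 and −6.44, by 2.37 (2.14 to 2.60). CCNH, the cyclin of the CDK-activating kinase, had −4.60 and −4.47. CCNT1, which activates transcription elongation with CDK9, and CCNC, the partner of CDK8, did not differ beyond the interval, with means of −5.06 and −5.09. Over all 13 cyclins the order was CCND3, CCND2, CCNA2, CCNB2, CCNB1, CCNG1, CCNH, CCNT1, CCNC, CCNF, CCNE1, CCND1 and CCNG2. Of its 12 steps, 9 were beyond the interval, and those between CCNB2 and CCNB1, CCNT1 and CCNC, and CCNF and CCNE1 were within it.

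The kinases showed the widest contrast between related genes. CDK1, the kinase of mitotic entry, had levels of −2.51 and −2.36 (18.5 ± 1.30%) and CDK4 had −2.89 and −2.85 (13.7 ± 0.277%). CDK2 had −4.86 and −4.87 (3.42 ± 0.0170%). CDK6, which can take the place of CDK4 with D cyclins, had −10.14 and −10.07 (0.0907 ± 0.00318%), at Ct values of 32.39 and 32.14. CDK4 exceeded CDK6 by 7.24 (7.01 to 7.48), or 151-fold, with 7.26 and 7.23 in the 2 samples, the largest of the 27 differences between related genes. CDK1 exceeded CDK2 by 2.43 (2.20 to 2.67). Of the summed level of these 4 kinases, CDK1 made up 50.8% and 52.7%, CDK4 39.1% and 37.8%, CDK2 9.91% and 9.25%, and CDK6 0.255% and 0.252%. All 5 steps in the order of the 6 CDKs on the array (CDK1, CDK4, CDK2, CDK7, CDK8 and CDK6) were beyond the interval.

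The CDK-activating kinase, which phosphorylates the T-loop of the cell cycle CDKs and also acts in transcription, had its cyclin above its other parts. CDK7 had −5.25 and −5.26, MNAT1, its assembly factor, −5.35 and −5.42, and CCNH, described above, the highest level of the trio, for a span of 0.85. CDK8, the kinase of the Mediator complex, had −6.05 and −5.79 and lay 0.83 below its cyclin CCNC. CDK7, MNAT1 and CDK8 were all below the median of the array. The 2 genes named for CDK5 were near the bottom. CDK5RAP1, named as a protein bound to the CDK5 activator, had −9.61 and −10.16, the widest gap between duplicates of all genes. CDK5R1, the activator of CDK5 known from neurons, had −11.44 and −11.51 (0.0351 ± 0.00127%) and was the scarcest gene in both samples.

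**Figure D2:**
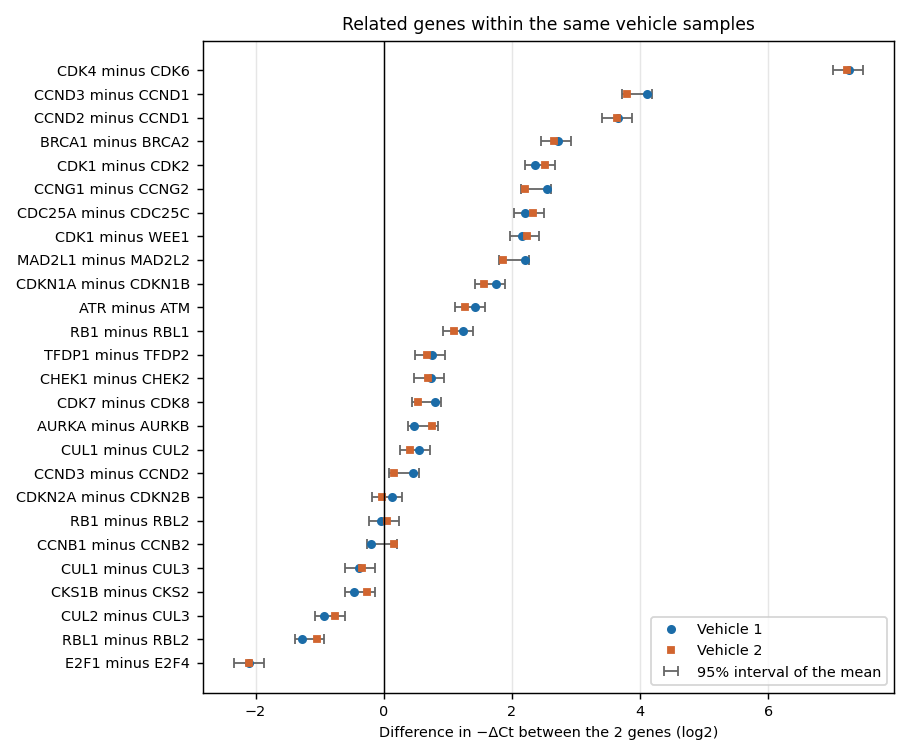
Difference in −ΔCt (log2, horizontal axis) between the first and the second gene of 26 related pairs, in Vehicle 1 (circles) and Vehicle 2 (squares), with the 95% interval of the mean from the spread over all 84 genes. CDK4 minus CDK6 stands apart at 7.24, and the intervals of CCNB1 minus CCNB2, RB1 minus RBL2 and CDKN2A minus CDKN2B include 0.

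The kinase subunits CKS2 and CKS1B, small proteins that bind CDKs and aid the recognition of their substrates, were the most abundant of all the genes. CKS2 had levels of −1.47 and −1.43 (36.6 ± 0.712%) and CKS1B had −1.94 and −1.70 (28.4 ± 3.35%). They held the same top places in both samples, and CKS1B minus CKS2 was −0.37 (−0.60 to −0.14). The enzymes that set the inhibitory phosphorylation of CDKs were much lower. WEE1, the kinase that adds it to CDK1, had −4.66 and −4.60, and CDK1 exceeded it by 2.20 (1.96 to 2.43). The phosphatases that remove it were scarcer still. CDC25A had −6.14 and −6.04 and CDC25C had −8.35 and −8.36, a difference of 2.27 (2.03 to 2.50). The 5 genes of this list therefore spanned 6.91, with both ends of the ranking represented.

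Among the CDK inhibitors, CDKN1A was the most abundant and the INK4 genes were scarce. CDKN1A, which encodes p21, had levels of −3.45 and −3.52 (8.94 ± 0.311%), and CDKN1B, which encodes p27, had −5.20 and −5.08 (2.84 ± 0.170%). CDKN1A exceeded CDKN1B by 1.65 (1.42 to 1.89). CDKN2A, the locus of INK4A and ARF, had −7.52 and −7.59 (0.532 ± 0.0164%), and CDKN2B, its neighbour that encodes INK4B, had −7.65 and −7.56 (0.514 ± 0.0247%). The INK4 pair differed by 0.05 (−0.18 to 0.28) and was detected in both samples. Of the summed level of these 4 genes, CDKN1A made up 70.9% and 68.5%, CDKN1B 21.1% and 23.3%, CDKN2A 4.21% and 4.09%, and CDKN2B 3.84% and 4.17%. CDKN3, a phosphatase that acts on CDKs and a gene of proliferating cells, had −3.92 and −3.87. With it, 2 of the 5 genes of the list were among the 28 highest on the array and 2 among the 28 lowest.

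The RB family and its partners spanned 2.10, with 5 of the 8 genes above the median of the array. RB1, the retinoblastoma protein, had −4.07 and −4.00 (6.10 ± 0.224%), RBL2 (p130) had −4.03 and −4.05 (6.09 ± 0.0496%), and RBL1 (p107) had −5.31 and −5.09 (2.73 ± 0.287%). RB1 and RBL2 could not be told apart at 0.00 (−0.23 to 0.24), and RBL1 lay 1.16 below each of them. E2F4, a repressor E2F bound mainly by RBL1 and RBL2, was the most abundant of the 8 genes of the list with −3.81 and −3.76. E2F1, an activator E2F, was the least abundant with −5.92 and −5.86, and E2F1 minus E2F4 was −2.10 (−2.34 to −1.87). The DP subunits that pair with E2Fs lay between them, TFDP1 with −4.11 and −4.29 and TFDP2 with −4.87 and −4.96. SERTAD1, a regulator of CDK4 and of E2F activity, had −5.81 and −5.91 and did not differ from E2F1 beyond the interval.

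Replication licensing, in which CDC6 loads the MCM helicase on origins, was represented by 5 genes, 4 of them above the median of the array. MCM5 had −2.95 and −3.06 (12.5 ± 0.643%), MCM2 had −3.75 and −3.54, MCM3 had −3.80 and −3.75, and MCM4 had −4.94 and −5.01 (3.18 ± 0.117%). The mRNAs for the subunits of this helicase, which assemble in equal numbers, spanned 1.97, and only MCM2 and MCM3 were within the interval of each other. That span is below the 2.01 by which a gene amplified 1.9-fold per cycle would read lower. CDC6 had −4.59 and −4.50.

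The genes of the ubiquitin ligases were more spread. Of the cullins, the scaffolds of these ligases, CUL3 had the highest mean at −4.10, followed by CUL1 at −4.46 and CUL2 at −4.94, with all 3 differences beyond the interval. SKP2, the F-box protein that marks CDKN1B for destruction, had −5.30 and −5.34, and CKS1B, its cofactor, was far above it with a mean of −1.82. CDC34, the ubiquitin-conjugating enzyme of the SCF, had −7.28 and −7.58, among the 5 widest gaps between duplicates. In the APC/C, CDC20, its mitotic activator, had −3.23 and −3.16 (10.9 ± 0.395%) and CDC16, a core subunit, had −3.76 and −3.43. ANAPC2, the cullin subunit of the same complex, had −7.93 and −8.19 (0.376 ± 0.0477%), and lay 4.87 below CDC20 at Ct values of 30.18 and 30.25.

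Of the spindle checkpoint genes, MAD2L1, the MAD2 protein that holds CDC20 inactive until chromosomes are attached, had −2.48 and −2.42 (18.3 ± 0.498%) and ranked 8. It exceeded MAD2L2, a related protein with roles in translesion synthesis, by 2.03 (1.79 to 2.26). MAD2L2 had −4.67 and −4.28. KNTC1, a kinetochore protein that recruits dynein, had −6.03 and −5.83. Thus 3 of the 6 APC/C and spindle checkpoint genes were among the 28 highest on the array and 2 among the 28 lowest.

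Genes of mitosis and proliferation had a list median of −3.66, the second highest by mean level, with 6 of 7 above the median of the array. The place differed between the samples. In Vehicle 2 the list was the highest at −3.44. In Vehicle 1 it was at −3.88, below the S and G2/M cyclins at −3.67 and replication licensing at −3.80 and level with the cell cycle kinases at −3.88. Without the 9 late genes, none of them in this list, the list was no longer second, at 0.96 above the higher median that results. KPNA2, a nuclear import receptor, had −2.25 and −2.04 (22.7 ± 2.41%), STMN1, which destabilises microtubules, had −2.41 and −2.44 (18.7 ± 0.232%), and MKI67, the Ki-67 antigen of dividing cells, had −2.55 and −2.51 (17.3 ± 0.394%). All 3 were among the 9 most abundant genes. AURKA, a kinase of the spindle poles, had −3.88 and −3.44, and AURKB, the kinase of the chromosomal passenger complex, had −4.35 and −4.20. AURKA exceeded AURKB by 0.61 (0.38 to 0.85). GTSE1, a microtubule-binding protein of S and G2, had −4.67 and −4.51. BIRC5 (survivin), which works with AURKB in the passenger complex, had −7.96 and −7.70 (0.440 ± 0.0554%), lay 3.56 below AURKB and was the only gene of the list among the 28 lowest.

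**Figure D3:**
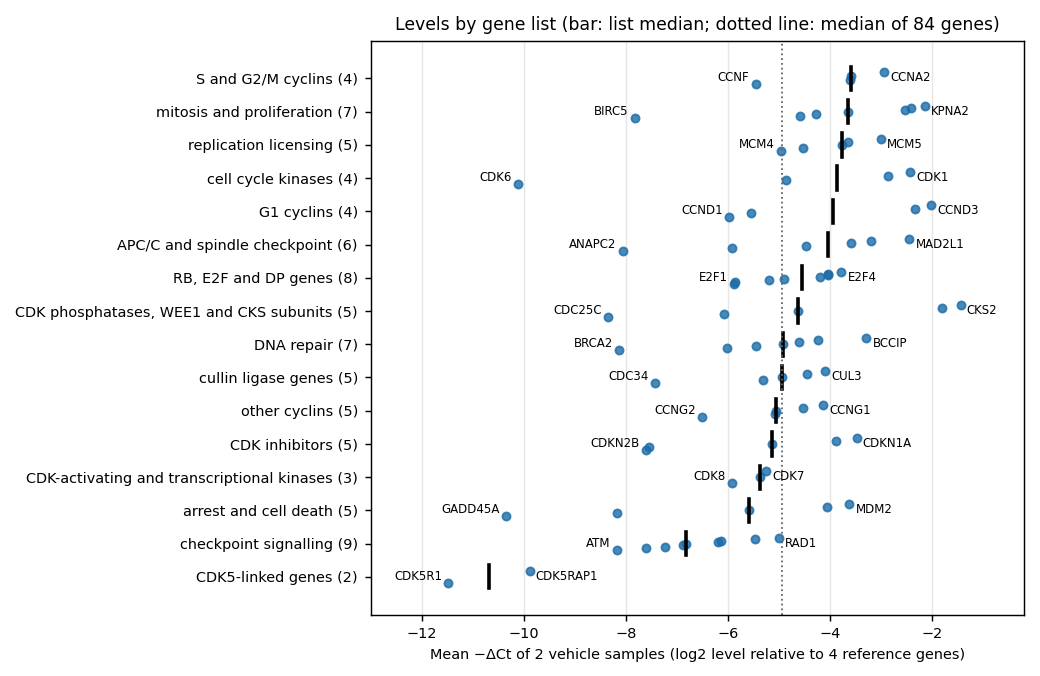
Mean −ΔCt of the 2 vehicle samples (log2, horizontal axis) for the members of 16 gene lists, ordered by list median (bar), with the number of genes in parentheses and the highest and lowest member named. The dotted line is the median of the 84 genes at −4.94. All 9 checkpoint signalling genes lie below it, while 6 of 7 mitosis genes and 4 of 5 licensing genes lie above it.

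Checkpoint signalling genes were low as a group, as the plot of levels by gene list shows. None of the 9 was above the median of the array, 7 were among the 28 lowest, and their median was −6.83 against −4.94 for the array. RAD1, a subunit of the clamp that loads at damaged DNA, had the highest level with −5.03 and −4.98 (3.10 ± 0.0770%). Its partners RAD9A and HUS1 had −7.36 and −7.12, and −7.52 and −7.67, so that this trimeric clamp spanned 2.59. RAD17, which loads the clamp, had −6.25 and −6.04.

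The mRNAs of the kinases at the head of the checkpoint read lower than those of the kinases below them. ATR, which responds to stalled replication forks, had −6.94 and −6.73 (0.879 ± 0.0926%), and ATM, which responds to double-strand breaks, had −8.36 and −8.00 (0.348 ± 0.0618%). ATR exceeded ATM by 1.34 (1.11 to 1.58). CHEK1, the kinase activated by ATR, had −5.52 and −5.44 (2.25 ± 0.0909%), and CHEK2, the kinase activated by ATM, had −6.26 and −6.12 (1.37 ± 0.0952%). Their difference was 0.71 (0.48 to 0.95), and each exceeded both upstream kinases in both samples. ABL1, a tyrosine kinase that ATM can activate, had −7.02 and −6.76 and did not differ from ATR beyond the interval.

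DNA repair genes were centred on the median of the array, with 4 of 7 above it, and all 6 steps in their order were beyond the interval. BCCIP, a protein that binds BRCA2 and CDKN1A, was the highest with −3.36 and −3.22 (10.2 ± 0.682%). NBN and MRE11 (listed as MRE11A), which act together at double-strand breaks, had −4.25 and −4.22, and −4.97 and −4.89, and differed by 0.70. RBBP8 (CtIP), which starts the trimming of DNA ends with them, had −4.71 and −4.53. BRCA1 and BRCA2, genes of homologous recombination, were lower than these. BRCA1, which acts early in this repair, had −5.44 and −5.46 (2.29 ± 0.0168%), and BRCA2, which acts later in it, had −8.16 and −8.11 (0.356 ± 0.00926%). BRCA1 exceeded BRCA2 by 2.69 (2.45 to 2.92), or 6.43-fold.

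Of the 5 genes of arrest and cell death, 2 were among the 28 highest on the array and 3 among the 28 lowest. MDM2, a ubiquitin ligase, had −3.68 and −3.57 (8.10 ± 0.448%) and ranked 19. GADD45A, a gene of growth arrest that is induced by DNA damage, had −10.17 and −10.52 (0.0774 ± 0.0132%) and ranked 83. BCL2, which blocks apoptosis, had −8.09 and −8.26 (0.347 ± 0.0286%), at Ct values of 30.34 and 30.32.

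The mRNAs of a complex or of a working unit did not read at equal levels. Primer efficiency was not measured, and a gene amplified 1.9-fold per cycle would read 2.01 lower at the median Ct. That value is an example and not a cutoff. Spans below it cannot be told apart from unequal amplification, and the share of unequal amplification in larger spans was not tested. Among the 11 units compared, the span between the highest and the lowest member was 0.70 for MRE11 with NBN, 0.83 for CDK8 with CCNC and 0.85 for the CDK-activating kinase, the 3 smallest. It was 2.16 for CDK1 with CCNB1, CCNB2 and CKS2, and 2.61 for CDK2 with CCNA2 and CCNE1. It was 8.08 for CDK4 and CDK6 with the D cyclins, the largest, between CCND3 and CDK6.

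The duplicates gave nearly the same order. Taken across 84 genes, which do not count as replicates, Pearson's r was 0.997 and Spearman's rho 0.996, and no gene moved by more than 7 ranks. The 15 scarcest genes were the same in both samples, and of the 15 most abundant 14 were shared. Levels were higher in Vehicle 2 for 57 genes and lower for 27, with a median gap of 0.06. The widest gaps after removal of this median were those of CDK5RAP1, GADD45A, AURKA, CDC34 and MAD2L2. The residual SD was 0.189 for the 9 genes with a mean Ct above 30 and 0.0989 for the rest. With the larger value, pairs of such late genes had an interval of ± 0.44. None of the 27 pairs joins 2 such genes. CDK4 with CDK6, CDC25A with CDC25C, ATR with ATM and BRCA1 with BRCA2 each hold 1. Their printed intervals of ± 0.23 use the spread of all genes and may be too narrow.

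The steps between neighbours at the lower end of the ranking were the widest. CDC25C was followed by CDK5RAP1 after a step of 1.53, and GADD45A by CDK5R1 after a step of 1.13, and both steps exceeded 0.99 in each sample. The step between CDK6 and GADD45A was 0.24, with 0.03 in Vehicle 1 and 0.45 in Vehicle 2. It was beyond the interval of ± 0.23 from all genes but within that of ± 0.44 for late genes, so their order is not settled. At the upper end, CKS2 stood 0.37 above CKS1B and MKI67 stood 0.34 above CDK4.

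The 84 genes had a median Ct of 27.2 and 27.0, their Ct values ran from 23.49 to 33.69, and none reached the limit of 35. The mean Ct of the 4 reference genes was 22.25 and 22.06. On the −ΔCt scale HPRT1 had a mean of −3.89 and RPLP0 of 2.40, so the percentages depend on which genes form the reference while the order of the genes does not. The well for genomic DNA was at 35 in both samples. The reverse transcription control minus the positive PCR control was 2.87 and 2.42 cycles.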

How the data were processed

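RNA of HMC-1.2 cells was converted to cDNA and run on a Qiagen RT2 Profiler PCR array for the human cell cycle. The authors obtained threshold cycles (Ct, a log2 measure) and ΔCt values (log2) with the web tool of the array's maker (version not stated in the sources). The deposited relative levels are the ratio 2 to the power of −ΔCt. The reference was identified as the 4 housekeeping genes whose ΔCt values sum to at most 1e-06. Deposited fold tables compare the inhibitors with vehicle and were not used here.

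The ΔCt values of both vehicle samples were averaged per gene with Python 3.11.15, pandas 2.3.3 and numpy 2.4.6. A fit of gene and sample gave the residual SD and the 95% interval (scipy 1.17.1), and this step was tested on simulated data. The simulation gave every gene the same SD, so it does not test the interval for late genes, whose SD was larger. The number of samples limits the precision, and no test was run. All 84 assays matched the RefSeq table by accession, and 1 gene had been renamed.

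Named genes are the 15 highest and lowest, the ends of each of 16 lists, all cyclins, CDKs, inhibitors, checkpoint kinases and repair genes, 27 pairs, 11 complexes and the 5 widest gaps. Results of 3 genes are not reported here by name. Other genes of the lists were named after their values were seen. The genes, lists and motifs were chosen with earlier results of these data known. Alternatives changed the reference, the Ct limit, the averaging, the amplification per cycle and the samples used.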

Additional observations from a re-analysis of the deposited data

How the results depend on the processing

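No paired analysis was possible because the result comes from no test and only 1 group was described. Another reference, or another amplification shared by all genes, cannot change the order of the means. Without Vehicle 1 or Vehicle 2 the order had a Spearman correlation of 0.998 and 0.999 with that reported. None of the 24 differences between related genes that were beyond the interval changed sign without either sample or with Ct limited to 30. The reference moved only the absolute levels: the median was −5.66 with all 5 housekeeping genes, −8.56, −6.40, −1.05 and −7.34 with ACTB, GAPDH, HPRT1 or RPLP0 alone, and 0.0034 against the median gene, while B2M alone and averaging of the relative levels moved no value beyond the spread. Without one or the other sample, the span of CDK1 with its cyclins was 2.17 to 2.30.

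The 9 late genes limit the lower end. With Ct limited to 30, the whole span was 6.40, CDK4 minus CDK6 4.98, CDC25A minus CDC25C 1.76, ATR minus ATM 1.01, BRCA1 minus BRCA2 2.40, the span of CDK4 and CDK6 with D cyclins 5.82, and the CDK5-linked list −2.91 relative to the median gene. With the 9 genes of mean Ct above 30 left out, the span was 6.38, the median −4.62, and 6 of the 15 scarcest genes were left. Relative to that median, the G1 cyclins then stood at 0.67, the S and G2/M cyclins at 1.02 and the other cyclins at −0.44. Cell cycle kinases stood at 1.75, CDK-activating and transcriptional kinases at −0.77, and phosphatases, WEE1 and CKS subunits at 1.39. CDK inhibitors stood at −0.52, RB, E2F and DP genes at 0.062, replication licensing at 0.84 and cullin ligase genes at −0.32. Mitosis stood at 0.96 and the APC/C and spindle checkpoint at 1.02. The kinases and not the S and G2/M cyclins thus stood highest. This setting takes away the 9 lowest levels by construction, which raises the median and lowers every list without a late gene alike. The kinases and the phosphatase list rose because they lost their lowest members, CDK6 and CDC25C. The DNA repair list lost BRCA2 and changed sign to −0.16, against 0.01 before. Its sign changed because the median of the array rose from −4.94 to −4.62. The arrest and cell death list changed sign to 0.56, against −0.65 before, having lost GADD45A and BCL2.

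At 1.9-fold per cycle all differences shrink in proportion: the median was −4.57 and the span 9.28. The CDK5-linked and checkpoint lists were at −5.32 and −1.76 relative to the median gene. CCND3 minus CCND1 was 3.66, CCND2 minus CCND1 3.38, CDK4 minus CDK6 6.71, CDK1 minus CDK2 2.25, CDC25A minus CDC25C 2.10, E2F1 minus E2F4 −1.95, BRCA1 minus BRCA2 2.49 and CDK1 minus WEE1 2.03. The spans were 2.40 for the RAD9A, RAD1 and HUS1 clamp, 1.82 for the MCM helicase, 3.24 for the SCF with SKP2, 2.00 for CDK1 and 2.42 for CDK2 with their cyclins, 7.48 for CDK4 and CDK6 with D cyclins, 3.30 for the passenger complex and 4.51 for the APC/C. Primer efficiency of single genes was not measured, and with 2 samples of unknown origin the spread between cultures is not known.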
